A study of Mus musculus with 34 samples.

Results

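The splicing factor genes were the 75 genes whose symbols name an SR protein (Srsf with a number), an SF3A or SF3B subunit, a heterogeneous nuclear ribonucleoprotein (hnRNP), a numbered PRPF factor, a U2AF subunit, a numbered snRNP protein (Snrnp) or an Sm, U1 or U2 snRNP protein (Snrp), together with Zcrb1. All 75 symbols were found among the 49686 symbols of the zygote and late 2-cell tables and among the 51734 of the blastocyst table. They were chosen by name and not by a threshold on expression, though with earlier results of these data known. Zcrb1 was added on its own, beside the symbol patterns.

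RNA was sequenced from mouse embryos one by one (SMART-seq2 cDNA, Tn5 fragmentation) after zygotes had received mRNA for wild-type CHK1 (WT) or for a CHK1 mutant that the labels call R442Q. CHK1 is a protein kinase of the DNA damage checkpoint. Zygotes numbered 5 for WT and 6 for R442Q, and late 2-cell embryos 4 and 5, none of them given an inhibitor. Blastocysts numbered 7 and 7, all 14 cultured with 30 nM of a CHK1 inhibitor. The design has no embryos without injected CHK1 mRNA among these groups, the embryos' own Chk1 gene was left in place in all of them, and strain and litter are not given in the sources used here. Genotype is used below, as in the labels, for the mRNA injected.

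Introns are removed by the spliceosome, which is built from small nuclear ribonucleoprotein particles (snRNPs). The U1 particle pairs with the 5′ splice site, U2AF and the U2 particle with its SF3A and SF3B subunits recognise the branch site and the 3′ end of the intron, and the U4/U6.U5 particle joins before catalysis. Sm proteins form the ring that most spliceosomal RNAs carry, whereas SR proteins and hnRNPs bind exons and introns and steer which sites are used. A rare class of introns is removed by a minor spliceosome, to whose U11/U12 particle Zcrb1, Snrnp25, Snrnp35 and Snrnp48 belong. In mouse embryos the zygote carries maternal transcripts, most of which are cleared by the late 2-cell stage as the embryo's own genome becomes active.

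Zygote libraries held 7183632 to 11296522 counts each, and late 2-cell libraries 5727956 to 8916343. No pair of libraries held identical values. Each library is 1 embryo, so p-values below measure the spread between embryos, and shared litters or cultures were not labelled. The share of a gene in a whole embryo cannot tell fewer cells of a type from less RNA per cell. In late 2-cell embryos the deposited FPKM summed to 712234 to 742246 in WT and to 814376 to 976830 in R442Q, without overlap. R442Q late 2-cell replicate 3 had the lowest mean correlation with its own group, by a small step (0.773, against 0.783 to 0.864 in the other late 2-cell embryos). The next lowest, at 0.783, was R442Q replicate 4. Replicate 3 also had the most genes above 0 (20485). R442Q blastocyst replicate 7 stood apart, with the lowest correlation (0.765, against 0.796 to 0.885 in the other blastocysts) and the fewest genes above 0 (12337). Values without each of them are given for some of the results they move. Chek1 itself ranged from 6086 to 13550 TPM (transcripts-per-million, a level per transcript length) in WT zygotes, with a median of 7064. In R442Q zygotes it ranged from 7807 to 10070 TPM, with a higher median of 9479, so the ranges overlapped. These values cannot separate injected from embryonic mRNA or the mutant from WT, and the part of the Chek1 level in the differences below was not tested. Sums of defining markers followed the labelled stages, but not every single marker did. The 6 oocyte and zygote markers summed to 3210 to 6052 TPM in zygotes and to 16.9 to 60.6 in blastocysts. The 8 blastocyst markers summed to 107 to 304 TPM in zygotes and to 1371 to 23750 in blastocysts, there mostly Krt8 and Krt18. Of these 8, Pou5f1 ran the other way, with medians of 171 (WT) and 234 TPM (R442Q) in zygotes and 120 and 112 TPM in blastocysts. Eif1a, on the late 2-cell list, had medians of 43.1 (WT) and 44.8 TPM (R442Q) in late 2-cell embryos and 102 and 67.7 TPM in blastocysts.

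The 250 bases before the gene start were available from RefSeq (GRCm38.p6) for 65 of the 75 genes, and 4 of them are shown because their genes carry main results below: Prpf8 was lower in R442Q zygotes, Prpf38b and Snrnp70 differed in opposite directions in R442Q late 2-cell embryos, and Snrnp25 rose between the stages. Capitals mark a GC box or a CCAAT box on either strand, and each sequence ends at the base before the start. Positions are chr11:75486527-75486776 (plus strand) for Prpf8, chr3:108911730-108911979 (minus strand) for Prpf38b, chr7:45395743-45395992 (minus strand) for Snrnp70 and chr11:32205165-32205414 (plus strand) for Snrnp25, with no annotated exon inside any of the 4 windows.
Prpf8: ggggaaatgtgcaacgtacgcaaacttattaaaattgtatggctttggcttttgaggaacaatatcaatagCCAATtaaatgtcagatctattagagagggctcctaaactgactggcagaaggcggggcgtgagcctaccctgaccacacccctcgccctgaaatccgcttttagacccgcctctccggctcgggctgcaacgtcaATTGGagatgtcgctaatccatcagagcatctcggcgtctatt
Prpf38b: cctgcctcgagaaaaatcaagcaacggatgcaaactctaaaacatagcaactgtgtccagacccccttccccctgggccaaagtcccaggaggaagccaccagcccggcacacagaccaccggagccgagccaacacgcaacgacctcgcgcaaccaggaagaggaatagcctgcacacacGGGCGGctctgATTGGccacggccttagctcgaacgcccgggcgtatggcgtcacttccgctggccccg
Snrnp70: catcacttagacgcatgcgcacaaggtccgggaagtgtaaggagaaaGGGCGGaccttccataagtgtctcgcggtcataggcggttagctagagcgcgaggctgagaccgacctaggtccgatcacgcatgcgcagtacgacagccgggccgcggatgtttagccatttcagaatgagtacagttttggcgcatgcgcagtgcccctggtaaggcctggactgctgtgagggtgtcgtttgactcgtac
Snrnp25: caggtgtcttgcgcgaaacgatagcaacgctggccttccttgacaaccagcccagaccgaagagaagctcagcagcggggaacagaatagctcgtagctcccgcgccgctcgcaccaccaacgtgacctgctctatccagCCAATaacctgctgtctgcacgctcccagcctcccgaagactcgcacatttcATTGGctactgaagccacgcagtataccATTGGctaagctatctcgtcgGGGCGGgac
Prpf8 held CCAAT boxes 179 and 43 bases before its start. Prpf38b held a GC box at 69 and a CCAAT box at 58 bases, and Snrnp70 a GC box at 203 bases. Snrnp25 held CCAAT boxes at 110, 58 and 30 bases and a GC box at 9 bases.

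The GC box was searched as GGGCGG. Across the 65 promoters it was found in 45 (69.2%), against 32.9% of all 27025 promoter windows of this length in the table. The ETS motif, CCGGAAG, was found in 20 (30.8%, against 7.05%). The CCAAT box, searched as its 5 letters, was found in 28 (43.1%, against 34.5%). The TATA box, TATAAA, was found in 6 (9.2%, against 13%). The cyclic AMP response element, TGACGTCA, was found in 2 (3.1%, against 1.62%). Both strands were searched and matches of different motifs could overlap. A match is a description of these letters and was not tied to any change in expression. The windows compared were not limited to genes expressed in these embryos, so a higher share is not shown to be particular to splicing genes.

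Levels within a stage were compared per length, as TPM. In zygotes the highest were Snrpe, an Sm ring protein, at 559 ± 68.5 TPM (SD, n = 11), Snrnp27, a protein of the U4/U6.U5 particle, at 489 ± 57.5 TPM, and Hnrnpc, which binds uridine tracts, at 473 ± 46.1 TPM. These 3 overlapped in their spread. In late 2-cell embryos Snrpc, the U1 protein that stabilises pairing with the 5′ splice site, stood at 1122 ± 330 TPM (SD, n = 9), and its lowest embryo (632 TPM) lay below the highest for Snrpe (716 TPM). Snrpe followed at 453 ± 172 TPM and Hnrnpc at 425 ± 134 TPM over the 9 embryos, but the genotypes ranked differently below Snrpc. In WT Hnrnpc (542 ± 52.8 TPM, n = 4) and Hnrnpf (435 ± 84.1 TPM) came next, with Snrpe at 335 ± 58.2 TPM. In R442Q Snrpe (547 ± 178 TPM, n = 5) and Hnrnpk (421 ± 78.6 TPM) came next, with Hnrnpc at 332 ± 95.9 TPM. In blastocysts Hnrnpk, which binds cytosine tracts, was highest at 590 ± 150 TPM (SD, n = 14), followed by Snrpe at 430 ± 82.7 TPM and Snrpb, another Sm ring protein, at 429 ± 75.5 TPM.

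Median TPM traced different courses for different members. Snrpc stood at 27.3 TPM in WT zygotes, 892 in WT late 2-cell embryos and 334 in WT blastocysts, and at 30.4, 1372 and 316 TPM in the R442Q groups. Snrpb went from 5.8 to 103 and 435 TPM in WT and from 5.4 to 115 and 412 TPM in R442Q. Snrpd2 went from 2.54 to 102 and 211 TPM in WT and from 2.92 to 116 and 234 TPM in R442Q. These Sm and U1 genes were low in zygotes of both genotypes, and Snrpb and Snrpd2 were highest in blastocysts. Prpf6, which bridges the U5 and U4/U6 particles, ran the other way, at 139, 15.1 and 29.4 TPM in WT and 93.8, 9.71 and 19.4 TPM in R442Q. Over all 75 genes, the WT median was highest in zygotes for 18, in late 2-cell embryos for 35 and in blastocysts for 22. For R442Q these counts were 22, 25 and 28, where the 22 include Srsf12, whose median was 0 at all 3 stages and so had no highest stage. Among the 20 hnRNPs 12 were highest at the late 2-cell stage in WT and 5 in R442Q, and among the 11 SR genes 7 in WT and 5 in R442Q. The tables were normalised separately, so levels across stages are a description with no test.

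**Figure D1:**
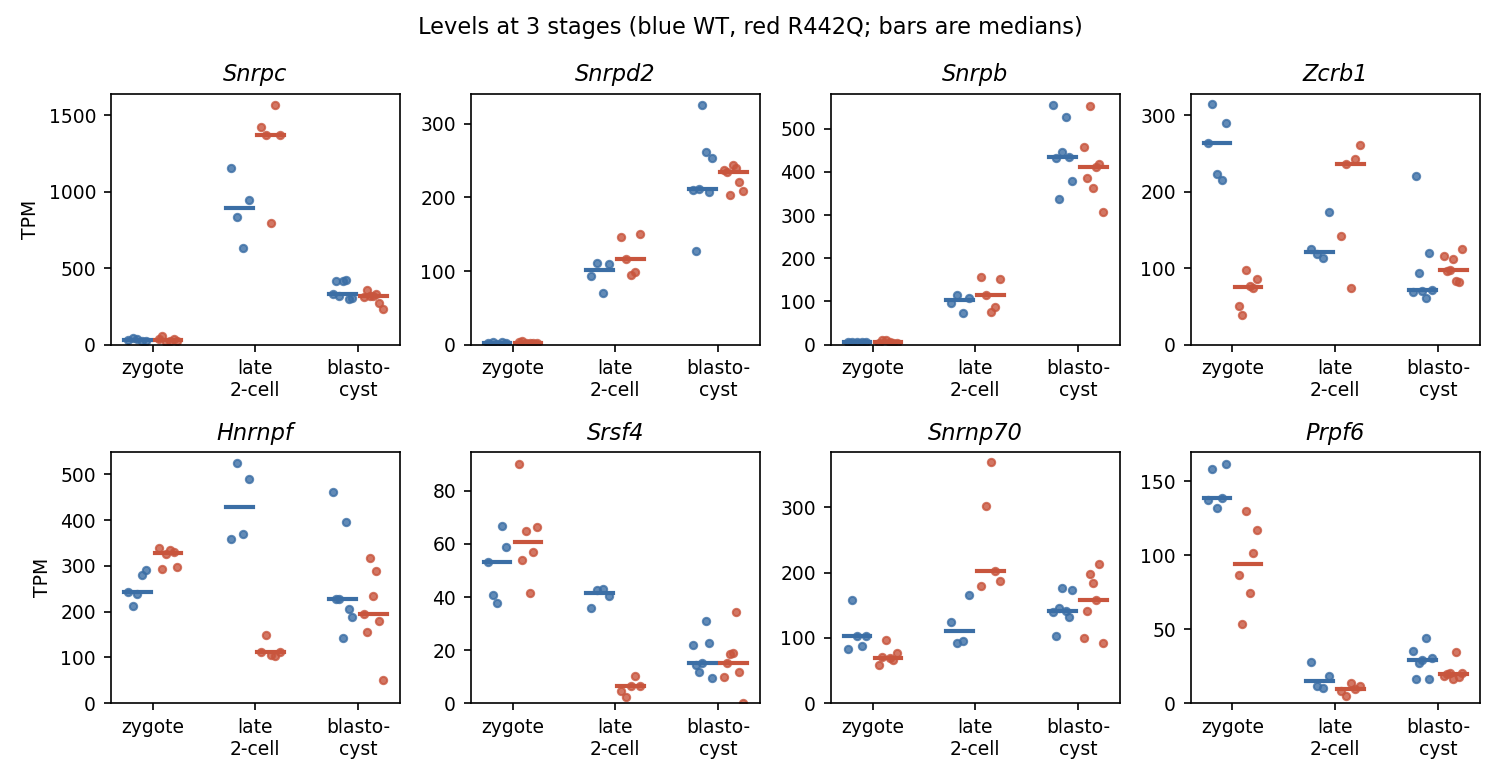
Levels of 8 splicing factor genes in TPM (vertical axis, linear, starting at 0) at 3 stages; each point is 1 embryo, blue for WT and red for R442Q, and bars are group medians. Snrpc, Snrpd2 and Snrpb are near the axis in zygotes (medians of 2.54 to 30.4 TPM) and far above it at the late 2-cell stage, Prpf6 runs the other way, and Zcrb1 and Hnrnpf have genotype differences of opposite sign at the early stages.

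In zygotes the question was whether the mutant kinase's mRNA was accompanied by other levels of these transcripts than WT CHK1 mRNA. Of 72 genes tested, 15 (20.8%) were called in zygotes (adjusted p under 0.05, quasi-likelihood test of edgeR), against 13.2% of all 12420 genes tested. In R442Q zygotes 6 rose and 9 fell, while the background was 6.3% higher and 6.92% lower. Genes that rose included Snrpd3, Snrpg and Snrpf of the Sm ring, and genes that fell included Snrnp40, Prpf8, Snrnp200, Sf3a3 and Zcrb1. The median log2 fold change was -0.14 over the members and 0.01 over all genes. In 7 of the 72 (9.7%) the groups did not overlap in normalised counts, against 8.36% of all genes, and all 7 were among the 15. Prpf40b, Snrnp35 and Srsf12 were too low to test: they held 36, 13 and 3 counts in all 6 R442Q zygotes, and 34, 7 and 12 in the 5 WT zygotes.

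Zcrb1 (chr15, 93386097 to 93398334, minus strand, GRCm38) had the smallest p. In WT zygotes 1 to 5 it stood at 114, 137, 95.2, 96.3 and 125 CPM (counts-per-million, with TMM scaling for library composition), and in R442Q zygotes at 18.8 to 47.4 CPM with a median of 37.3. Every R442Q zygote lay below every WT zygote. The log2 fold change was -1.75 ± 0.19 (SE), or 0.297 times the WT level, with an adjusted p of 1.31e-04 in edgeR. The other U11/U12 members tested did not pass in edgeR: Snrnp25 gave a log2 difference of -0.14 ± 0.45 and Snrnp48 of -0.14 ± 0.19. On a list of 6 further minor spliceosome genes, 1 rose and 2 fell. Pdcd7, the U11/U12 partner protein of Snrnp35 and others, fell by 1.08 on the log2 scale (adjusted p 4.51e-04 in edgeR), Zrsr2, which recognises the 3′ splice site, fell by 0.57 (adjusted p 0.0179), and its relative Zrsr1 rose by 2.62 ± 0.69 (adjusted p 0.0193).

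Among 11 Sm, U1 and U2 genes 3 rose, 1 fell and 8 had positive log2 differences, with a median of 0.29; on FPKM 6 were positive, with a median of 0.04. Snrpd3 stood at 55.4, 59, 50.4, 57.4 and 69.1 CPM in WT zygotes and at 88.4 to 109 CPM (median 97.8) in R442Q. Snrpg stood at 108, 119, 109, 116 and 121 CPM in WT and at 150 to 203 CPM (median 166) in R442Q. Snrpf stood at 85.1, 92.1, 87.7, 87.1 and 83.9 CPM in WT and at 109 to 125 CPM (median 120.5) in R442Q. All 3 encode proteins of the Sm ring, and in each the lowest R442Q zygote lay above the highest WT zygote. The log2 fold changes were 0.72 ± 0.12 for Snrpd3, 0.54 ± 0.11 for Snrpg and 0.42 ± 0.10 for Snrpf, with adjusted p-values of 0.00113, 0.00417 and 0.00965 in edgeR. The summed level of the 7 Sm ring genes was 471 to 577 CPM in WT and 616 to 727 CPM in R442Q zygotes. The gene that fell, Snrpa1, encodes a U2 protein and not an Sm protein (log2 -0.57 ± 0.17, adjusted p 0.0313 in edgeR). Of Snrpf, 89.5% of the transcript's 50-base stretches also occurred in other annotated genes, and of Snrpg 11.6%, so their counts depend on how shared reads were divided.

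Of 6 numbered snRNP proteins 2 fell, Snrnp40 and Snrnp200. Snrnp40, a WD-repeat protein of U5, stood at 64.5, 62.7, 73.3, 59.1 and 51.3 CPM in WT zygotes and at 24.4 to 35.7 CPM (median 31.7) in R442Q, without overlap, a log2 fold change of -1.03 ± 0.14 (adjusted p 3.51e-04 in edgeR). Prpf8, the scaffold around the catalytic RNA, stood at 64, 78.1, 33.3, 63 and 49.5 CPM in WT and at 22.9 to 38.3 CPM (median 26.1) in R442Q. Only WT zygote 3 lay within the R442Q range for Prpf8. Its log2 fold change was -1.05 ± 0.20 (adjusted p 0.0025 in edgeR). Snrnp200, the helicase that unwinds U4 from U6, fell by 0.74 ± 0.23 (adjusted p 0.0397 in edgeR). Of 12 PRPF genes Prpf8 alone was called, and 11 had negative log2 differences (median -0.25), also with either other scaling. Prpf6 gave -0.38 ± 0.18 (adjusted p 0.183 in edgeR). The summed PRPF level was 917 to 991 CPM in WT and 691 to 860 CPM in R442Q.

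Of 9 SF3 genes 1 fell: Sf3a3, a subunit of the U2-bound SF3A complex, stood at 104, 106, 94.1, 95.8 and 68.4 CPM in WT and at 46.1 to 69.6 CPM (median 56.3) in R442Q zygotes. WT zygote 5 fell inside the R442Q range. The log2 fold change was -0.72 ± 0.14 (adjusted p 0.00329 in edgeR). Of 3 U2AF genes U2af1l4, a relative of the small U2AF subunit, rose by 0.49 ± 0.14 (adjusted p 0.0253 in edgeR). None of 10 SR genes passed by edgeR, and 0 did so at an unadjusted p of 0.05, against 27.1% of all genes; DESeq2 and limma also called 0.

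Among 20 hnRNP genes 2 rose and 3 fell. Hnrnpf, which binds guanine tracts, stood at 302, 271, 294, 361 and 370 CPM in WT and at 392 to 476 CPM (median 427) in R442Q, without overlap (log2 0.40 ± 0.11, adjusted p 0.0251 in edgeR). Hnrnph3, of the same subfamily, rose by 0.60 ± 0.18 (adjusted p 0.0424 in edgeR). Hnrnpk stood at 244, 373, 325, 336 and 312 CPM in WT and at 186 to 281 CPM (median 231) in R442Q. WT zygote 1 lay within the R442Q range, and the log2 fold change was -0.47 ± 0.12 (adjusted p 0.0185 in edgeR). Hnrnpul2, a relative of the nuclear scaffold protein Hnrnpu, stood at 34.5, 52.7, 35, 40.7 and 25.4 CPM in WT and at 13.9 to 29.3 CPM (median 17.9) in R442Q. Its groups overlapped through WT zygote 5, and it fell by 0.94 ± 0.22 (adjusted p 0.00936 in edgeR). Hnrnpu itself fell by 0.53 ± 0.15 (adjusted p 0.0283 in edgeR). Of the Hnrnpf transcript, 61.9% of 50-base stretches occurred in other genes, and of Hnrnpk 17.8%.

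**Figure D2:**
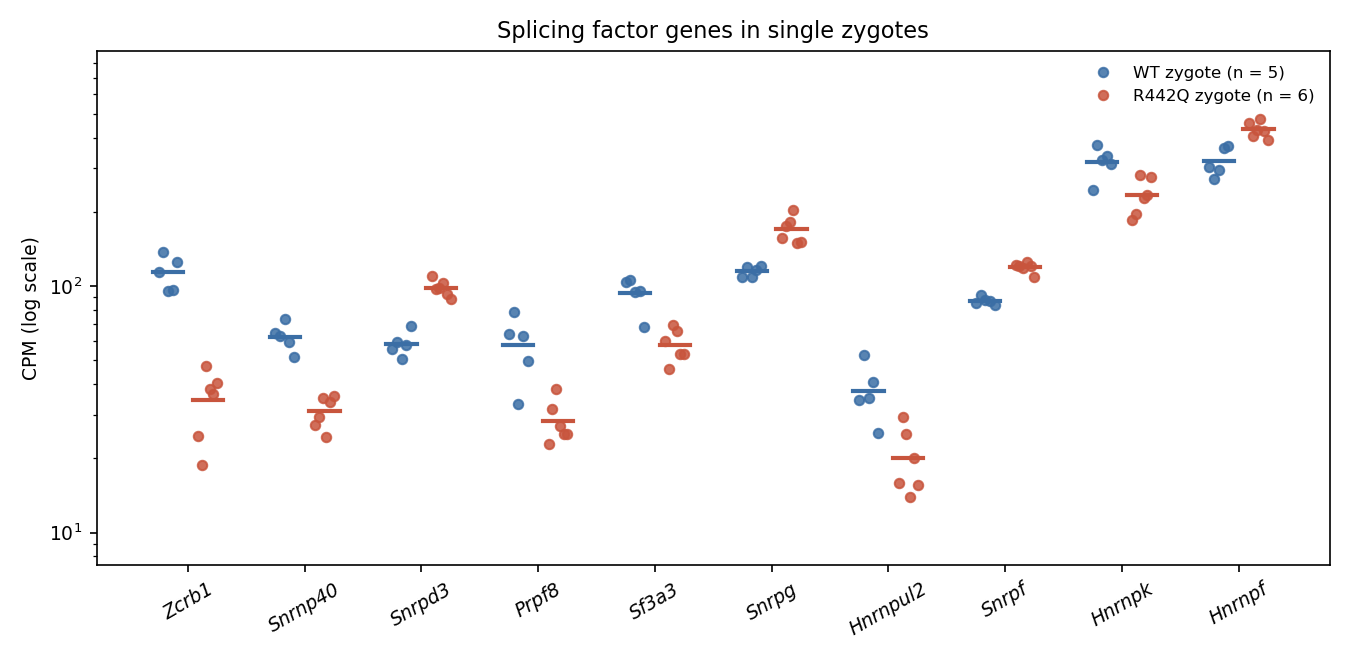
CPM (vertical axis, log scale) of 10 splicing factor genes in 5 WT zygotes (blue) and 6 R442Q zygotes (red); each point is 1 zygote and bars are means. Zcrb1 and Snrnp40 are lower in every R442Q zygote than in any WT zygote, and Snrpd3, Snrpg, Snrpf and Hnrnpf are higher in every one.

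Among 91 other splicing genes, 87 were tested in zygotes and 9 rose and 10 fell (21.8%), against 13.2% of all genes. The catalytic core and Prp19 complex held 8 of these among 23 genes, with 4 in each direction (over all genes 6.3% were higher and 6.92% lower), for example Bcas2, a Prp19 complex subunit, which rose by 0.69 ± 0.14 (adjusted p 0.00419 in edgeR). Rbm17, a U2-associated protein, fell by 1.05 ± 0.17 (adjusted p 0.00101 in edgeR), and Luc7l, a U1-associated protein, gave a log2 change of -1 (SE 0.153, adjusted p 7.35e-04).

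The count of zygote calls changed with the fit and with single embryos, and it is given here without the share of all genes called in each fit. With zygotes and late 2-cell embryos fitted together, which changes the estimate of spread, the scaling and the genes tested, 2 of the 15 were called (Zcrb1, adjusted p 0.00392, and Snrnp40, 0.04, in edgeR). Without WT zygote 2 there were 9 calls and without R442Q zygote 1 there were 9. Hnrnpf was lost without WT zygote 1, 2 or 3 or R442Q zygote 1 (adjusted p 0.0604, 0.0714, 0.0613 and 0.0548 in edgeR), and Hnrnpk without WT zygote 2 (0.0513). Scaled by library size alone, which moves the median of all genes by -0.12, 2 rose and 15 fell, and 4 rises were lost: Snrpf and Hnrnpf (adjusted p 0.052 and 0.0725 in edgeR), U2af1l4 and Hnrnph3. On FPKM, Hnrnpk was lost too (adjusted p 0.315 in limma). The oocyte and zygote markers, all 6 of them above 0, summed to 4688 to 6052 TPM in WT and 3210 to 4452 TPM in R442Q zygotes. Cumulus and granulosa markers summed to 26 to 30.2 TPM in WT (6 of 8 above 0, with Amh and Ptx3 at 0) and to 17.9 to 23.4 TPM in R442Q (7 of 8, with Amh at 0). Most of each sum was Cyp19a1, with medians of 25.8 TPM in WT and 18 TPM in R442Q. The part of either marker list in these differences was not tested.

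In late 2-cell embryos the same comparison was made with each stage fitted alone. Of 73 genes tested, 8 (11%) passed in edgeR, against 4.18% of all 13883 genes. In R442Q, Snrnp70 rose and 7 fell, while 1.22% of all genes were called higher and 2.95% lower. At an unadjusted p of 0.05 there were 31 of the 73, against 21% of all genes. The groups did not overlap in 19 of 73 (26%), against 12.2% of all genes, and all 8 called genes were among these 19. The median log2 difference was -0.14 over the members and 0.07 over all genes. Whether late 2-cell embryos held fewer calls than zygotes depended on the fit: DESeq2 called 22 against 17, and the edgeR fit of both early stages together 27 against 2. The shares of all genes called in these other fits are not given here, so these counts do not single out the splicing genes. With each stage fitted alone, Hnrnpf was the 1 gene called at both early stages, higher in R442Q zygotes and lower in R442Q late 2-cell embryos.

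Snrnp70, the U1 protein that binds the U1 RNA and contacts SR proteins, stood at 138, 106, 104 and 200.2 CPM in WT embryos 1 to 4 and at 294, 440, 442.1, 336 and 282 CPM in R442Q embryos 1 to 5. All R442Q embryos lay above all WT embryos. The log2 fold change was 1.44 ± 0.31, or 2.71 times the WT level (adjusted p 0.0191 in edgeR), and on log2(TPM + 1) the difference was 1.03 and was not called (adjusted p 0.0641 in limma). Snrnp35, the minor spliceosome's counterpart of Snrnp70, ran the other way, at 16.5, 30.9, 14.5 and 23.5 CPM in WT and 1.94, 7.64, 3.59, 3.43 and 5.79 CPM in R442Q. Its groups did not overlap either, with a log2 fold change of -2.19 ± 0.54 (adjusted p 0.0373 in edgeR), and its counts were 102 to 218 per WT embryo and 11 to 54 per R442Q embryo.

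Zcrb1 did not pass. It stood at 51.3, 57.2, 52.2 and 73.7 CPM in WT and at 79.6, 123, 30.1, 151 and 134 CPM in R442Q. In 4 of 5 R442Q embryos it was above every WT embryo, and in replicate 3 it was below them all. The log2 difference was 0.88 ± 0.41 (adjusted p 0.233 in edgeR). Without R442Q replicate 3 it was 1.12 (adjusted p 0.0434), and with each library's trend on length and GC content removed it was 0.08.

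Of the 11 Sm, U1 and U2 genes 0 passed in the edgeR fit of this stage alone or by limma. DESeq2 called 5 of them higher, as did the edgeR fit of both early stages together. In the fit of this stage alone 7 had an unadjusted p under 0.05 and all 11 log2 differences were positive, from 0.44 for Snrpa1 to 1.24 for Snrpd1, with a median of 0.90. Snrpc stood at 623, 495, 356 and 571 CPM in WT and at 1058, 923, 441.2, 1197 and 950 CPM in R442Q. Snrpg stood at 113, 110, 107 and 134 CPM in WT and at 272, 154, 175, 233 and 180 CPM in R442Q. R442Q replicate 3 was within the WT range for Snrpc, and Snrpg did not overlap between groups. The summed Sm ring level was 381 to 545 CPM in WT and 475 to 1213 CPM in R442Q. Without R442Q replicate 3, 4 of the 11 were called higher (Snrpd1, Snrpe, Snrpc and Snrpb2, adjusted p 0.0194, 0.0216, 0.026 and 0.0399 in edgeR), and the median was 1.08. All 11 stayed positive under both other scalings and on FPKM and TPM. With the trend on length and GC content removed, 6 were positive and 5 negative, with a median of 0.25.

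Of 9 SF3 genes 1 fell, Sf3a1, which brings SF3A to the U2 particle. It stood at 123, 109, 76.7 and 189 CPM in WT and at 21.6, 43.3, 25.8, 12.9 and 40.2 CPM in R442Q, without overlap, a log2 fold change of -2.05 ± 0.40 (adjusted p 0.0135 in edgeR). The large SF3B subunits Sf3b2 and Sf3b3 gave -0.90 ± 0.31 and -1.74 ± 0.56, and the small subunits Sf3b5 and Sf3b6 gave 1.01 ± 0.34 and 0.99 ± 0.40. None of these 4 passed in the edgeR fit of this stage alone; DESeq2 called Sf3b2, Sf3b3 and Sf3b5 (adjusted p 0.0462, 0.0273 and 0.0249), and the edgeR fit of both early stages together called all 4 (adjusted p 0.0029 to 0.0406). Without R442Q replicate 3, the edgeR fit of this stage alone called Sf3b3, Sf3b5 and Sf3b6 (log2 -2.23, 1.12 and 1.23, adjusted p 0.0321, 0.0476 and 0.0298). U2af2, the large U2AF subunit, gave -2.03 ± 0.56 (adjusted p 0.0556 in edgeR), with no overlap between groups. It was called by DESeq2 (adjusted p 0.00484), by limma on FPKM (0.0332) and by edgeR with both early stages fitted together (0.00127).

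Of 12 PRPF genes 2 fell and 10 differences were negative. Prpf38b, a PRP38 family protein, stood at 124, 64.4, 106 and 136 CPM in WT and at 17.5, 37.4, 28.8, 13.6 and 43.8 CPM in R442Q. Prpf4b, a nuclear kinase of the tri-snRNP, stood at 103, 114, 89.2 and 82.3 CPM in WT and at 36.8, 24.3, 50.6, 19.3 and 49.3 CPM in R442Q. Neither gene overlapped between groups. The log2 fold changes were -1.87 ± 0.39 for Prpf38b and -1.36 ± 0.35 for Prpf4b (adjusted p 0.0181 and 0.0422 in edgeR).

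Of 10 SR genes Srsf4, a larger SR protein, fell. It stood at 45.3, 64.7, 59 and 60.1 CPM in WT and at 9.4, 4.42, 8.48, 21.2 and 12.1 CPM in R442Q, without overlap. The log2 fold change of -2.31 ± 0.43, or 0.202 times the WT level, was the lowest among the called members (adjusted p 0.0132 in edgeR). Of its transcript, 39.5% of 50-base stretches occurred in 1 other annotated gene. Without R442Q replicate 3, Srsf10 was called higher as well (log2 1.24, adjusted p 0.034 in edgeR). Srsf4 mRNA in R442Q blastocysts ranged from 0.11 to 36.4 FPKM, around a WT range of 10.2 to 30.9 FPKM, and without replicate 7 its lowest value was 10.7 FPKM.

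Of 20 hnRNP genes 2 fell and 14 differences were negative, with a median of -0.60. Hnrnpf stood at 381, 579, 402 and 492 CPM in WT and at 165, 181, 145, 179 and 146 CPM in R442Q. Hnrnpm, which binds GU-rich sequences, stood at 76.5, 116, 73.8 and 81.5 CPM in WT and at 11.5, 38.7, 21.4, 13.1 and 35 CPM in R442Q. In both genes every R442Q embryo was below every WT embryo. The log2 fold changes were -1.45 ± 0.26 for Hnrnpf and -1.80 ± 0.40 for Hnrnpm (adjusted p 0.0112 and 0.0231 in edgeR). On log2(FPKM + 1) the Hnrnpm difference was -0.996 and was not called (adjusted p 0.0946 in limma). The summed hnRNP level was 2622 to 3061 CPM in WT and 1452 to 2146 CPM in R442Q, also without overlap, while in zygotes it was 1840 to 2081 and 1907 to 2153 CPM.

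**Figure D3:**
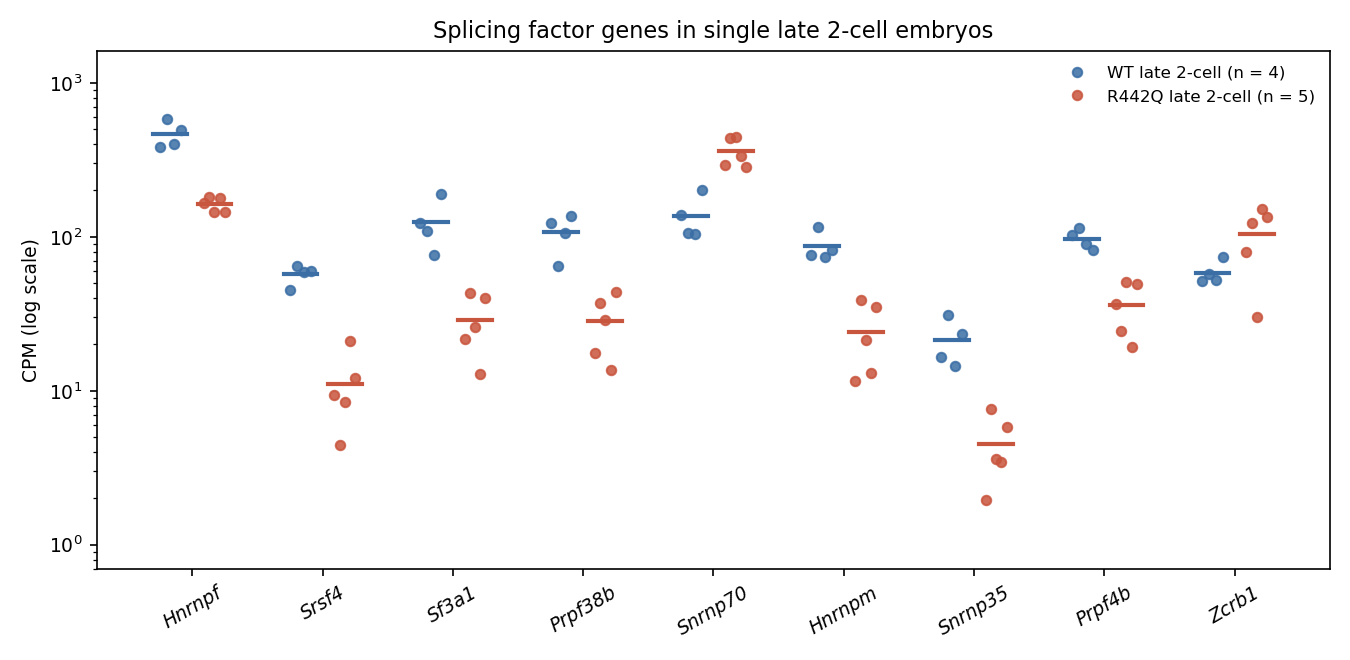
CPM (vertical axis, log scale) of the 8 splicing factor genes called in late 2-cell embryos and of Zcrb1, in 4 WT (blue) and 5 R442Q embryos (red); each point is 1 embryo and bars are means. The red points lie below the blue points in 7 genes and above them in Snrnp70, and in Zcrb1 1 red point, at 30.1 CPM, is below all blue points.

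Of the 91 other splicing genes, 1 rose and 5 fell (6.59%), near the 4.18% of all genes. Bud31, a spliceosome activation factor, rose by 1.25 ± 0.33 (adjusted p 0.0497 in edgeR). Dhx38, a helicase acting before the second catalytic step, fell by 2.20 on the log2 scale (SE 0.46, adjusted p 0.0169 in edgeR).

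Over the 73 members the late 2-cell log2 difference correlated with the log2 length of the longest transcript at Pearson r = -0.32, and over 13784 genes at r = -0.30. With GC content r was -0.27 over the members and -0.27 over all genes. These are correlations across genes that share the same 9 libraries, and genes are not independent replicates. Of the 8 called genes, 3 were called with the libraries' trends on length and GC content removed: Hnrnpf (-1.58), Prpf38b (-2.14) and Snrnp70 (2.36), with adjusted p-values of 0.011, 0.0196 and 0.0102 in edgeR. The other 5 missed the threshold and kept their direction: Srsf4 at -1.77, Sf3a1 at -1.70, Hnrnpm at -1.54, Snrnp35 at -2.35 and Prpf4b at -1.46, with adjusted p-values from 0.0509 to 0.0655 in edgeR.

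**Figure D4:**
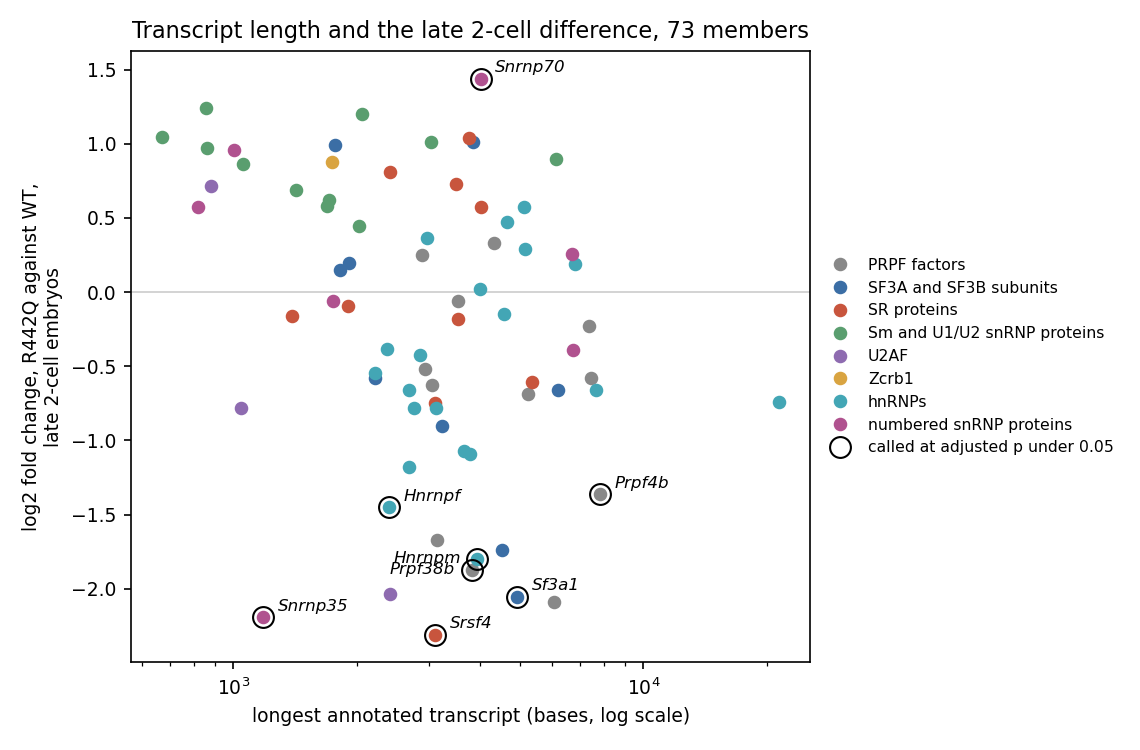
Log2 fold change of R442Q against WT in late 2-cell embryos (vertical axis) against the length of the longest annotated transcript in bases (horizontal axis, log scale) for 73 splicing factor genes, coloured by family, with the 8 called genes ringed. Points slope downward (r = -0.32); Snrnp70, at 4008 bases and 1.44, is the ringed point above 0.

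Late 2-cell calls also rested on single embryos, and the counts are given here without the share of all genes called in each fit. Leaving out WT embryo 1, 2, 3 or 4 left 5, 4, 5 and 3 calls, and leaving out R442Q embryo 3 gave 17, 9 higher and 8 lower. Prpf4b was lost in 7 of the 9 fits with 1 embryo left out (adjusted p 0.0667 to 0.119 in edgeR) and Snrnp35 in 6 of 9 (0.0578 to 0.155). Snrnp70 was lost without WT embryo 1, 2 or 3 (0.056, 0.091 and 0.0663), Hnrnpm without WT embryo 2 or 4 (0.0903 and 0.0619), and Prpf38b and Sf3a1 without WT embryo 4 (0.0625 and 0.0539). Hnrnpf and Srsf4 kept their calls whichever embryo was left out. Markers of the late 2-cell stage, 6 of 6 above 0 in both groups, summed to 171 to 1314 TPM in WT and to 571 to 2187 TPM in R442Q embryos, and their part in these differences was not tested.

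In blastocysts, all grown with the inhibitor, limma called 0 of 74 members, against 0.00885% of all 11297 genes. At an unadjusted p of 0.05 there were 3 members, against 7.4% of all genes, and 0 members had groups free of overlap, against 0.416% of all genes. Srsf12 was too low to test. The median log2 difference was -0.16 over the members, with 56 negative and 18 positive, and -0.10 over all genes. All 10 SR genes and 8 of 9 SF3 genes had negative differences, and 6 of 11 Sm, U1 and U2 genes had positive ones. Over all genes 6698 of 11297 differences were negative. These signs moved with R442Q replicate 7: without it 44 members were negative and 30 positive (median -0.03), against 5591 of 11212 genes (median 0.00), and 7 of 10 SR genes and 8 of 9 SF3 genes were negative. The limma test then called 0 members, with 1 at an unadjusted p under 0.05.

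Sf3a2, a subunit of SF3A, ranged from 31.1 to 60.4 FPKM in WT (median 36.7) and from 12.8 to 33.2 FPKM in R442Q blastocysts (median 25.6). Its log2 difference on the log2(FPKM + 1) scale was -0.64 ± 0.25 (adjusted p 0.503 in limma). Snrnp200 ranged from 23.7 to 43.1 FPKM in WT (median 30.2) and from 15.3 to 28 in R442Q (median 21.6), a difference of -0.54 ± 0.23 (adjusted p 0.618 in limma). In both genes most R442Q blastocysts were low, and the ranges overlapped. Srsf3, the smallest SR protein, ranged from 114 to 161 FPKM in WT (median 144) and from 83.9 to 141 in R442Q (median 112). Its difference was -0.35 ± 0.16 (adjusted p 0.658 in limma). Sf3b1, which holds the branch site helix, ranged from 128 to 184 FPKM in WT (median 140) and 67 to 141 in R442Q (median 134), a difference of -0.38 ± 0.19 (adjusted p 0.697 in limma). Without R442Q replicate 7 the differences were -0.49 for Sf3a2, -0.47 for Snrnp200, -0.28 for Srsf3 and -0.25 for Sf3b1, and with embryo quality weights Srsf3 gave -0.22. Zcrb1 ranged from 61.2 to 226 FPKM in WT and from 87 to 145 in R442Q, and Hnrnpf from 166 to 453 and from 59.6 (replicate 7) to 341 FPKM. Their differences were 0.20 ± 0.25 and -0.37 ± 0.33 (adjusted p 0.908 and 0.865 in limma). Differences of this size did not pass with 7 embryos a group, which does not show that the genotypes had equal levels, and the depth in counts is unknown for blastocysts.

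The change from zygote to late 2-cell embryo was tested in each genotype in 1 edgeR fit of all 20 early embryos. In WT, 29 members rose and 15 fell of 73 (60.3%), against 61.2% of all 16199 genes, of which 36.2% rose and 25% fell. In R442Q, 30 rose and 18 fell (65.8%), against 65.1% of all genes, of which 35.3% rose and 29.8% fell. The members' shares were near the background in both genotypes. Of the 73, 23 rose in both, 9 fell in both and 15 passed in neither. Stage and table cannot be told apart, since each stage was deposited as a table of its own, and both contrasts share the fit's estimate of spread.

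Among the 6 largest rises in both genotypes were Snrpd2 and Snrpb of the Sm ring, Snrpc of U1, Snrnp25 of the minor spliceosome and Sf3b6. In WT, Snrpd2 stood at 2.03, 2.58, 1.25, 2.97 and 2.03 CPM in zygotes and at 77.2, 102, 60.2 and 102 CPM in late 2-cell embryos. Snrpc stood at 11.8, 19.4, 16.2, 12.3 and 10.5 CPM in WT zygotes and at 623, 495, 356 and 571 CPM in WT late 2-cell embryos. No zygote overlapped any late 2-cell embryo. The log2 changes in WT were 5.29 ± 0.33 for Snrpd2 and 5.19 ± 0.34 for Snrpc, and in R442Q 5.52 ± 0.30 and 5.58 ± 0.32 (adjusted p from 1.33e-12 to 2.23e-11 for Snrpc, and 6.49e-13 and 7.29e-12 for Snrpd2, in edgeR). Snrpb rose by 4.09 ± 0.37 in WT and 4.39 ± 0.34 in R442Q. Sf3b6, which contacts the branch-site adenosine, rose by 3.66 ± 0.33 and 4.29 ± 0.30. Sf3b5 was among the 6 largest rises in R442Q, at 3.71 ± 0.24, against 2.39 ± 0.25 in WT.

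The minor spliceosome genes did not share 1 course. Snrnp25 stood at 5.97, 3.82, 3.01, 2.16 and 2.26 CPM in WT zygotes and at 45.4, 86.7, 38.7 and 55.2 CPM in WT late 2-cell embryos, a log2 rise of 4.03 ± 0.46 in WT and 4.63 ± 0.43 in R442Q. Snrnp48 rose by 1.36 ± 0.27 and 1.67 ± 0.25. Snrnp35 had 7 counts in all 5 WT zygotes and 580 in the 4 WT late 2-cell embryos, and it was called higher in both genotypes, with fitted log2 values of 6.86 and 3.88 that depend on the prior count. Zcrb1 fell in WT, by 0.95 ± 0.34, and rose in R442Q, by 1.59 ± 0.30 (adjusted p 0.0182 and 7.58e-05 in edgeR). All 6 further minor spliceosome genes passed in both genotypes, with 4 higher and 2 lower in each. Over all genes 61.2% passed in WT and 65.1% in R442Q.

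Of 10 SR genes 8 rose and 0 fell in WT, and 8 rose and 1 fell in R442Q, with median log2 changes of 2.21 and 2.09. Over all genes 36.2% rose and 25% fell in WT, and 35.3% rose and 29.8% fell in R442Q, with medians of 0.34 and 0.22. Srsf7 stood at 15.3, 35.8, 17.4, 32 and 22.8 CPM in WT zygotes and at 250.3, 94.8, 116 and 170 CPM in WT late 2-cell embryos, well apart (log2 2.68 ± 0.36 in WT, 3.62 ± 0.34 in R442Q). Srsf6 rose by 3.08 ± 0.35 and 2.80 ± 0.31. The exception in R442Q was Srsf4, which fell by 3.13 ± 0.32 there (adjusted p 1.3e-08 in edgeR) and gave -0.33 ± 0.32 in WT. Srsf6 and Srsf7 were chosen as examples after their values were seen. Of 12 snRNP assembly genes, such as those of the SMN complex, which load Sm rings onto RNA, 8 rose and 3 fell in WT, and 7 and 3 in R442Q.

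The 6 largest falls came from several families. Prpf6 stood at 262, 236, 209, 273 and 321 CPM in WT zygotes and at 39.3, 25.4, 16.1 and 39.4 CPM in WT late 2-cell embryos, well below. Its log2 change was -3.11 ± 0.34 in WT and -3.45 ± 0.31 in R442Q (adjusted p 4.01e-08 and 1.35e-09 in edgeR). Snrnp27 fell by 2.92 ± 0.28 in WT and by 2.11 ± 0.25 in R442Q, Snrpb2, a U2 protein, by 2.39 ± 0.29 and 1.47 ± 0.25, and Snrpd3 by 1.48 ± 0.34 and 1.29 ± 0.31. U2af1l4 fell by 1.51 ± 0.30 and 1.38 ± 0.27. Sf3b3, Sf3b2 and Sf3a1 fell in both, by 1.92 ± 0.41, 1.23 ± 0.21 and 0.79 ± 0.29 in WT and by 3.82 ± 0.40, 2.23 ± 0.20 and 2.60 ± 0.28 in R442Q. Prpf19, the ubiquitin ligase that names its complex, fell by 2.47 ± 0.58 in R442Q and gave -0.48 ± 0.59 in WT. Of the 11 Sm, U1 and U2 genes 5 rose and 4 fell in WT, and 5 rose and 2 fell in R442Q. Over all genes 36.2% rose and 25% fell in WT, and 35.3% rose and 29.8% fell in R442Q. Of the ring's own subunits Snrpb and Snrpd2 rose and Snrpd3 fell in both genotypes. Snrpd1 and Snrpf fell in WT, and in R442Q gave 0.24 ± 0.25 and -0.38 ± 0.24, which were not called.

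Whether the R442Q difference itself changed between the stages was tested as an interaction in the same fit. Of 73 members 19 (26%) passed in edgeR, 6 with a more positive and 13 with a more negative difference in late 2-cell embryos, against 10.1% of all genes (3.07% and 7.05%). For Hnrnpf, R442Q was above WT in zygotes and below it in late 2-cell embryos, a change of -1.94 ± 0.23 (adjusted p 2.08e-05). For Zcrb1 the order of signs was the reverse, with a change of 2.55 ± 0.46 (adjusted p 0.00119), but its late 2-cell difference was not called (0.88, adjusted p 0.233 in edgeR) and was 0.08 with the length and GC trend removed. These were also the 2 members whose stage changes passed in opposite directions: Hnrnpf rose by 0.54 ± 0.17 in WT and fell by 1.40 ± 0.16 in R442Q (adjusted p 0.00918 and 7.1e-08 in edgeR).

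Srsf4 (-2.81 ± 0.44), Hnrnpm (-2.50 ± 0.45), Prpf38b (-1.79 ± 0.38) and Snrnp70 (1.78 ± 0.32) followed, with adjusted p-values of 3.98e-04, 0.00122, 0.00419 and 0.00129 in edgeR. In these 4 genes the zygote difference had not been called (log2 0.41, 0.60, -0.17 and -0.41), and the late 2-cell difference had. In zygotes Hnrnpm averaged 11.2 ± 2.17 CPM for WT (SD, n = 5) and 17.5 ± 3.58 CPM for R442Q (n = 6), and at the late 2-cell stage 87.1 ± 19.8 CPM (n = 4) and 23.9 ± 12.4 CPM (n = 5), so that only WT embryos showed a called rise (2.95 ± 0.34). All 11 Sm, U1 and U2 genes had positive interaction values, also under both other scalings, and Snrpd1 was called (1.28 ± 0.37, adjusted p 0.0287 in edgeR). With the length and GC trend removed, 7 of the 11 were positive. Of 91 other splicing genes 3 were higher and 12 lower in this test (16.5%, against 10.1% of all genes), among them Bud31 (1.67 ± 0.33).

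**Figure D5:**
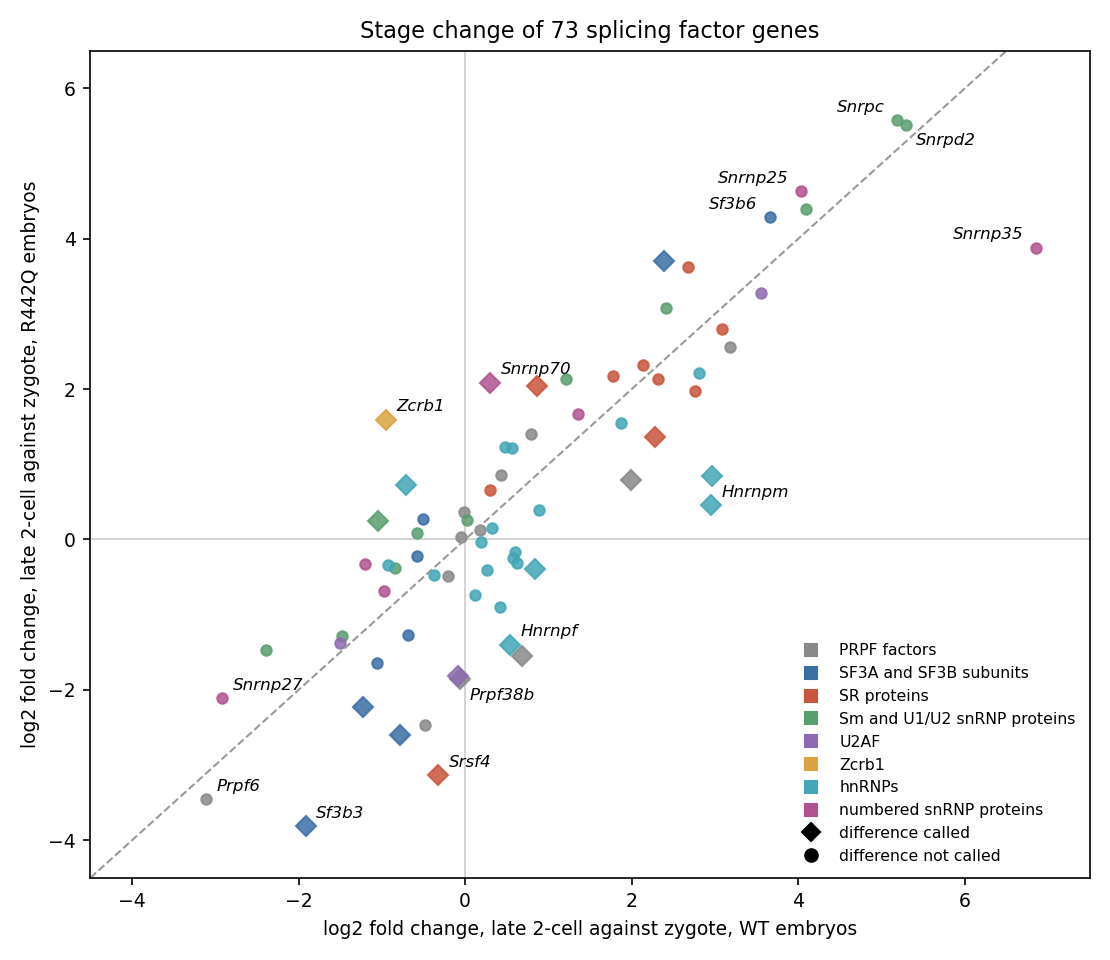
Log2 fold change from zygote to late 2-cell embryo in WT (horizontal axis) and in R442Q (vertical axis) for 73 splicing factor genes, coloured by family; the dashed line marks equal change and diamonds mark the 19 genes whose difference between genotypes was called. Zcrb1 lies left of 0 and above it, Hnrnpf right of 0 and below it, and Srsf4 and Hnrnpm lie far below the dashed line, while Snrpc and Snrpd2 lie close to it.

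The 6 interaction genes with the smallest p kept their calls under every alternative tried, among them the leaving out of each embryo, though on log2(FPKM + 1) the Hnrnpm change was -1.34 (adjusted p 0.0141 in limma). The count of 19 did not: it was 11 without WT zygote 2, 12 without WT late 2-cell embryo 4 and 24 without R442Q late 2-cell embryo 3. The split by direction is not given for these fits, so the excess of negative calls is not shown to hold in them. With other scalings, which move the median of all genes by 0.16 (DESeq2 size factors) or 0.11 (library size), 7 were higher and 8 lower, or 6 and 8.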

How the data were processed

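RNA from 34 single mouse embryos was measured. Per the submitters' processing notes the authors used RSEM and the mm10 build. RSEM's version, the annotation and the use of strand are not given in the sources used here. The deposited estimated counts per gene of zygotes and late 2-cell embryos were made by the authors without normalisation. Of the values above 0, 73.8% were whole, and all were rounded. The deposited FPKM, made by the authors for all 3 stages, is normalised to length and library size; each stage is a table of its own.

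Counts were analysed in R 4.3.3 with edgeR 4.0.16 (filterByExpr with a minimum count of 10, TMM scaling, quasi-likelihood test), each stage alone for genotype and all 20 early embryos together for stage and interaction. Blastocysts were analysed with limma 3.58.1 on log2(FPKM + 1), keeping genes that reached 1 FPKM in 7 or more of the 14 embryos, so folds of low genes are understated there. P-values were adjusted by Benjamini-Hochberg over all genes tested and called under 0.05. The functions were tested on simulated data. CPM uses TMM factors over the 20 early embryos. TPM is FPKM rescaled to the same total in every embryo. Folds are R442Q over WT or late 2-cell over zygote.

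Positions, lengths, GC content and shared 50-base stretches came from GENCODE M21 (GRCm38), which held 98.4% of the early and 92.1% of the blastocyst symbols. Strand use being unknown, reads of called genes that overlap another on the opposite strand cannot be told from it: Hnrnpf, Hnrnpk, Hnrnpu, Snrpd3, Snrpf, Snrpg, U2af1l4, Srsf4, Prpf6, Prpf4b, Sf3b3 and Snrnp70.

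The genes named were, for R442Q against WT in zygotes and late 2-cell embryos, up to 10 called members with the smallest p; for each stage change, the 6 largest rises and falls with a mean of at least 10 CPM in the higher group; for the interaction, the 6 with the smallest p; in blastocysts, the 4 with the smallest p; the 3 highest by TPM in each stage; and Zcrb1. Others named were chosen after their values were seen. Members, lists and rules were chosen with earlier results of these data known. Alternatives were other scalings, no filter, DESeq2 1.42.0, a length and GC correction, limma on FPKM or TPM, joint or separate fits, a replicate block, and leaving out each embryo; for blastocysts, other pseudocounts, filters and weights.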

Additional observations from a re-analysis of the deposited data

Results flagged for a closer look

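In 19 splicing factor genes the R442Q difference changed between the early stages by the interaction test in edgeR; the cause was not tested. The changes on the log2 scale (the R442Q difference in late 2-cell embryos minus that in zygotes) were negative for 4 hnRNPs, at -1.94 for Hnrnpf, -2.50 for Hnrnpm, -2.12 for Hnrnpl and -1.23 for Hnrnph3, and positive for Hnrnpul2, at 1.43. Among PRPF factors they were -1.79 for Prpf38b, -1.21 for Prpf4b and -2.24 for Prpf31. Among SF3 subunits they were -1.81 for Sf3a1, -1.002 for Sf3b2, -1.90 for Sf3b3 and 1.31 for Sf3b5. SR genes gave -2.81 for Srsf4, -0.92 for Srsf11 and 1.18 for Srsf10. U2af2 gave -1.73, Snrnp70 1.78, Snrpd1 1.28 and Zcrb1 2.55.

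One embryo stood apart within its group: Snrpd3 in WT late 2-cell replicate 2 was at 32.4 CPM, against 17.8 CPM in the next of the 4 embryos. That was 1 of 97 groups examined, and chance alone sets an embryo apart in about 1 of 20 groups.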

How the results depend on the processing

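Counts of called members, with edgeR unless said, moved most in late 2-cell embryos. They are not set beside the share of all genes called under each alternative, so a change in count does not single out the splicing genes. Against 8 calls there, DESeq2 called 22, a length and GC correction left 3, limma on log2(TPM + 1), chosen after seeing the data, called 13 and a fit of both early stages together called 27. Leaving out 1 embryo gave 3 to 17. Against 15 calls in zygotes, a fit of both early stages together left 2 and leaving out 1 embryo gave 9 to 16. Against 19 interaction calls, no filter on low counts left 12 and leaving out 1 embryo gave 11 to 24. Blastocysts stayed at 0 under each limma alternative tried, with 1 to 5 members at an unadjusted p under 0.05. Stage calls ranged from 37 to 52 in WT and from 45 to 58 in R442Q over the alternatives run, and limma on FPKM was not run for them because the stages were normalised separately. Replicate numbers did not pair the embryos: same-numbered embryos of a stage had deviations correlated from -0.168 to 0.204. With the replicate number as a block, 13 members were called in zygotes, 0 in late 2-cell embryos (23 at an unadjusted p under 0.05), 0 in blastocysts, 43 and 46 in the WT and R442Q stage changes and 9 in the interaction. For single named members under all alternatives, the replicate block among them, 965 values were unchanged, 55 lost and 1 gained the call, and 0 reversed. The 965 kept direction and side of the threshold, except that they include checks of mean against median TPM for the 3 highest members of each stage. Those checks have no direction or threshold. The causes were not tested. Depth is unknown for blastocysts, and Prpf40b and Srsf12 were below what these depths can test at the early stages.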
